A study of Mus musculus with 8 samples.

Results

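Anti-GDF8 treatment was compared with placebo in the articular cartilage of uninjured knees, in 4 of the 8 pooled RNA libraries of the study. The treated libraries were GDF8 Ab uninjured pools A and B, from mice given the GDF8 antibody at 10 mg/kg by subcutaneous injection on a weekly schedule of 2 doses. They were set against PLA Ab uninjured pools A and B, from mice given a placebo antibody at the same dose. The mice were C57BL/6J of 4 to 5 months of age and of both sexes. For the antibody treatments the study's methods name Col1-eGFP mice beside C57BL/6J mice. In every mouse of both groups the anterior cruciate ligament of the opposite hind limb had been transected (ACLT) 7 days before, so the uninjured limb is the contralateral limb of an operated animal and no unoperated mouse entered the comparison. A pool joins 4 limbs, with 8 mice per group in the study's methods, while the sample labels speak of 4 mice per treatment. The ACLT limbs of the same treatment groups gave the other 4 libraries, which were used for the estimate of spread and for a side by side view. The replicates are pools, so every p-value measures the spread between pools.

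GDF8, also called myostatin, is a secreted factor of the TGF-beta superfamily that is made mainly by skeletal muscle and restrains muscle growth. It circulates in a latent complex, is released by BMP1/tolloid proteases, binds the activin receptor ACVR2B together with a type I receptor, and signals through SMAD2 and SMAD3. The antibody binds the protein and has no direct action on the transcript. Articular cartilage itself holds few cells, embedded in type II collagen and aggrecan, and lies on bone with marrow and beside synovium, ligament and muscle.

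The deposited values are counts per 1e+06 reads (CPM), and the depth of the uninjured libraries, in units of 1e+06 reads, was 16.4 and 19.8 in the GDF8 Ab pools and 20.1 and 28.1 in the PLA Ab pools. Cartilage markers were present in all 4 pools: the lubricin gene Prg4 reached 1202 to 2231 CPM, the type II collagen gene Col2a1 224 to 1654 CPM and the aggrecan gene Acan 60.1 to 88.9 CPM. The 22 cartilage genes together took 0.419% to 0.536% of the reads. Skeletal muscle fiber genes took 2.21% to 8.82%, erythroid genes 7.01% to 10.7% and neutrophil genes 2.84% to 3.94%. A treatment tag of the control samples names the quadricep, while tissue, title and source name cartilage. In such mixed bulk tissue, fewer cells of a type and less RNA per cell cannot be told apart. The 5 sex-linked genes overlapped between the treatments.

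Across 17401 tested genes, anti-GDF8 treatment changed no transcript past the threshold in uninjured cartilage. Limma, with all 8 libraries in 1 model and Benjamini-Hochberg adjustment, called 0 genes (0.0%), and no adjusted p fell below 0.484. Before adjustment 791 genes (4.55%) had p under 0.05, of which 516 (2.97%) were higher and 275 (1.58%) lower with GDF8 Ab. Voom weights gave 0 calls too, and 763 genes before adjustment. That number was 2282 without PLA Ab uninjured pool A and 414 without GDF8 Ab uninjured pool A. With 2 pools against 2, an exact permutation test cannot fall below p = 0.333. The values below are therefore levels and differences between pools, not changes. For the description, genes were counted whose pools did not overlap, which means that both GDF8 Ab pools lay above, or both below, the 2 PLA Ab pools. Such genes made up 23.9% of all tested genes on the higher side (4156) and 11.0% on the lower side (1906), and these shares are the yardstick for every gene group. The surplus on the higher side depends on scaling. The median log2 difference of all genes was 0.09, and when the libraries were rescaled by a trimmed mean it was 0.00, with 2973 genes (17.1%) on the higher and 3043 (17.5%) on the lower side and 305 higher against 491 lower genes at the unadjusted threshold.

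Gene groups that stood far from these shares on the deposited scale included B cell genes and mitochondrial respiratory genes on the lower side. On the higher side they included cell cycle and osteoclast genes. The lists behind these groups were chosen with earlier results of the data known, so their counts are descriptions.

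**Figure D1:**
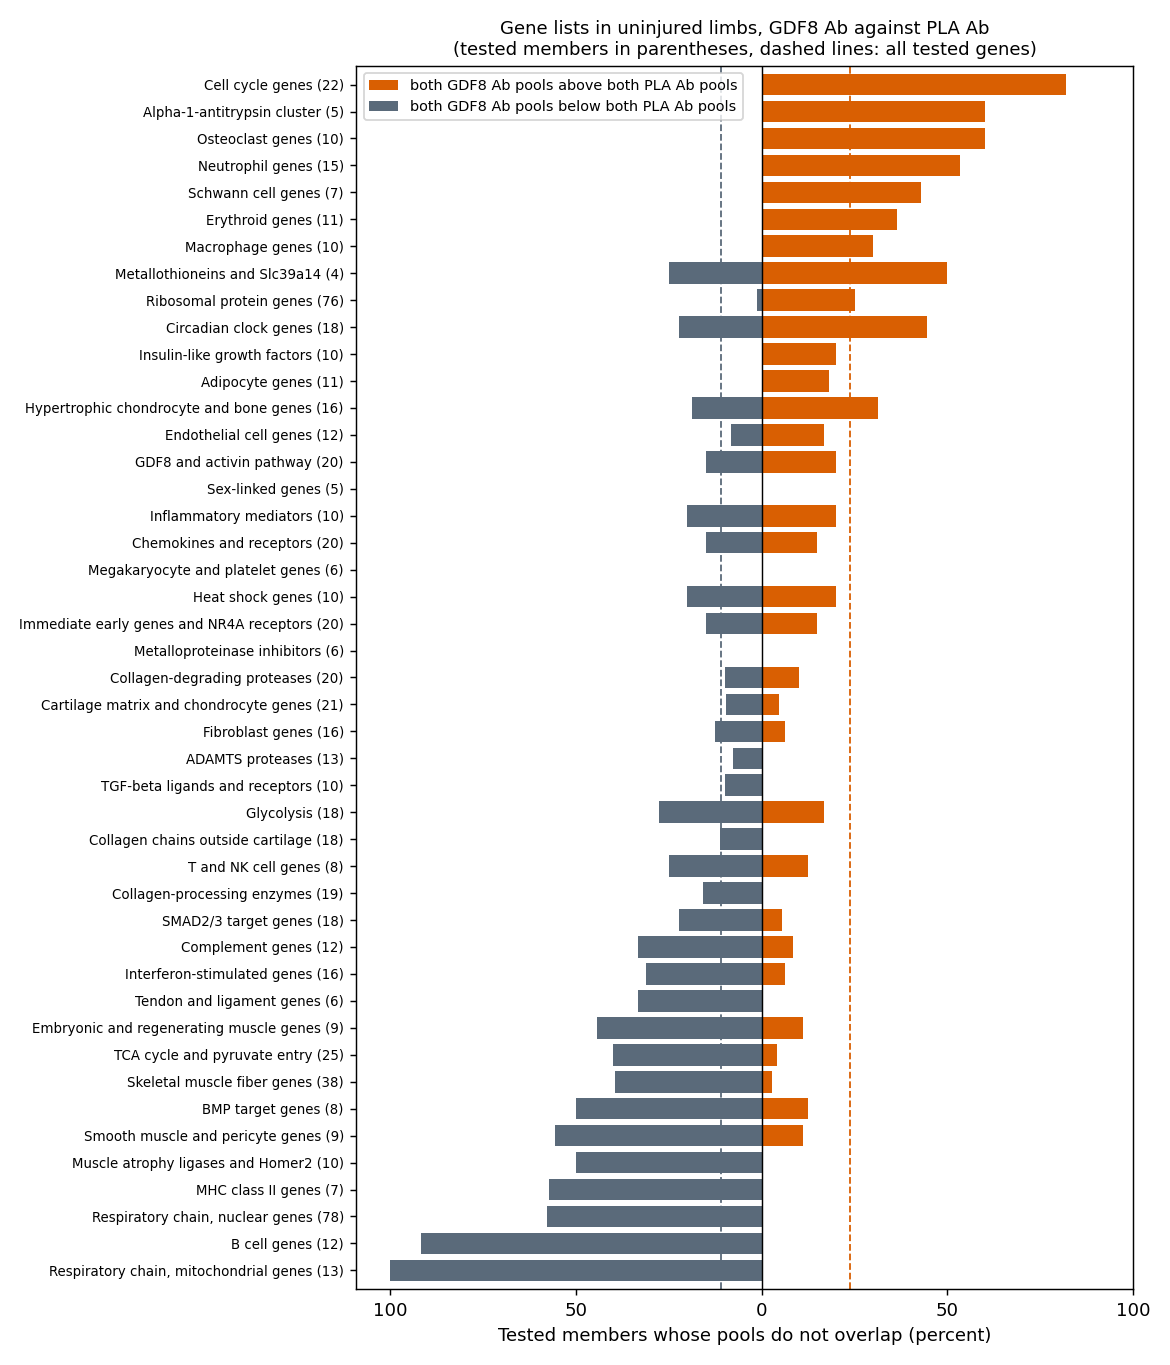
Share of the tested members of each gene list whose pools did not overlap between treatments in uninjured limbs, in percent, with members higher in GDF8 Ab pools to the right and members lower to the left. The dashed lines mark the shares among all tested genes, 23.9% higher and 11.0% lower, and the mitochondrial respiratory genes reach 13 of 13 lower and the cell cycle genes 18 of 22 higher.

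The transcript of the antibody's target was low in cartilage. Mstn, which encodes GDF8, had 3.89 and 7.22 CPM in the GDF8 Ab pools, against 17.2 and 38.1 CPM in the PLA Ab pools. The pools did not overlap, and the log2 difference was -2.26 ± 1.04 (SE, adjusted p = 0.891). Mstn is a muscle gene, and the share of muscle fiber reads moved with it, 2.21% and 3.75% in the GDF8 Ab pools against 3.88% and 8.82% in the PLA Ab pools. Its part in the Mstn values was not tested. Among the 20 tested genes of the GDF8 and activin pathway none had an unadjusted p under 0.05, and the median log2 difference was 0.01. Of the 20, 4 lay wholly higher and 3 wholly lower, against 23.9% and 11.0% of all genes. The latent TGF-beta binding protein gene Ltbp3 had 71.0 and 79.9 CPM with GDF8 Ab and 93.9 and 74.1 CPM with PLA Ab. The activating protease gene Bmp1 had 51.6 and 96.3 CPM with GDF8 Ab and 60.1 and 88.4 CPM with PLA Ab. Both overlapped, and on the deposited scale ligand, receptor, protease and SMAD transcripts gave no shared direction. After trimmed mean rescaling 2 of the 20 lay wholly higher and 6 wholly lower, against 17.1% and 17.5% of all genes. The 10 TGF-beta ligands and receptors had a median log2 difference of -0.03, and 1 of them lay wholly lower, against 11.0% of all genes. With that rescaling 5 of the 10 did, against 17.5% of all genes.

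Transcripts that SMAD2/3 signaling is known to induce had a median near no difference, with more genes wholly lower than wholly higher. Of 18 tested targets, 2 were lower at an unadjusted p under 0.05, and the median log2 difference was -0.03. Of the 18, 4 lay wholly lower and 1 wholly higher, against 11.0% and 23.9% of all genes. After trimmed mean rescaling 5 lay wholly lower and 1 wholly higher, against 17.5% and 17.1% of all genes. The 2 targets past the unadjusted threshold were Acta2 and Tagln, which are contractile genes of smooth muscle and are described with that group. The BMP target list had 4 of 8 genes wholly lower and 1 wholly higher, against 11.0% and 23.9% of all genes. Its median log2 difference was -0.16.

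Genes of early B lymphocytes were lower in both GDF8 Ab pools than in both PLA Ab pools. B cells arise in marrow, where precursors rearrange their immunoglobulin genes and carry a pre-B receptor in which VPREB1 and IGLL1 stand in for the light chain. Vpreb1 had 0.851 and 0.959 CPM with GDF8 Ab, against 7.85 and 4.95 CPM with PLA Ab, with a log2 difference of -2.72 ± 0.35 (SE, adjusted p = 0.484) and the smallest p of all genes. Igll1 had 0.912 and 1.62 CPM in the GDF8 Ab pools, against 14.8 and 7.05 CPM in the PLA Ab pools (-3.02 ± 0.46 on the log2 scale, SE, adjusted p = 0.484). Vpreb3, a chaperone of the same receptor, had 2.74 and 1.92 CPM with GDF8 Ab and 18.5 and 8.22 CPM with PLA Ab. These 3 genes were several-fold lower in every GDF8 Ab pool, with no overlap.

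The recombinase gene Rag1 followed the same order at low levels, 0.304 and 0.202 CPM with GDF8 Ab against 4.37 and 1.46 CPM with PLA Ab, a log2 difference of -3.11 ± 0.71 (SE, adjusted p = 0.891). The other genes of the list lay lower by less. Cd79a, a chain of the B cell receptor, had 66.1 and 39.3 CPM with GDF8 Ab and 95.8 and 83.8 CPM with PLA Ab. Ms4a1, which encodes CD20, had 23.1 and 16.2 CPM with GDF8 Ab and 38.6 and 29.6 CPM with PLA Ab. The immunoglobulin heavy chain gene Ighm had 335 and 552 CPM with GDF8 Ab and 606 and 704 CPM with PLA Ab. Dntt, also a gene of early B lymphocytes, had a log2 difference of -0.44 ± 0.30 (SE, adjusted p = 0.891). Those of Cd79a and Ms4a1 were -0.81 and -0.80, so the larger differences were not shared by every early gene. In all, 11 of 12 B cell genes lay wholly lower, against 11.0% of all genes, and the median log2 difference was -0.81. The exception was the transcription factor gene Ebf1, with 28.3 and 32.3 CPM in GDF8 Ab pools and 47.3 and 30.7 CPM in PLA Ab pools. Leaving out GDF8 Ab uninjured pool A or B moved the median to -1.13 or -0.56.

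Other immune and marrow-borne genes were mixed. Of 15 neutrophil genes 8 lay wholly higher in GDF8 Ab pools, against 23.9% of all genes, and 0 wholly lower. Their median log2 difference was 0.31. Fcnb, which encodes a ficolin of the neutrophil lineage, had 279 and 308 CPM with GDF8 Ab and 246 and 186 CPM with PLA Ab. Of 11 erythroid genes 4 lay wholly higher on the deposited scale and 0 after trimmed mean rescaling, against 23.9% and 17.1% of all genes. The 8 T and NK cell genes had 1 wholly higher and 2 wholly lower, against 23.9% and 11.0% of all genes. MHC class II genes, which B cells and other antigen-presenting cells express, lay on the same side as the B cell genes. Of these 7 genes 4 lay wholly lower, against 11.0% of all genes, with a median log2 difference of -0.33. The neutrophil median was 0.05 without PLA Ab uninjured pool B.

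The B cell pattern was present in the ACLT limbs too, where 11 of 12 genes lay wholly lower with GDF8 Ab, against 35.6% of all genes there, and the median log2 difference was -1.03. Vpreb1 had 1.45 and 1.41 CPM in GDF8 Ab ACLT pools and 13.3 and 10.7 CPM in PLA Ab ACLT pools, a log2 difference of -3.02. The uninjured minus ACLT difference for Vpreb1 was 0.30 ± 0.49 (SE, adjusted p = 0.830). Both limbs came from the same mice, so the second limb is not a second set of animals.

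**Figure D2:**
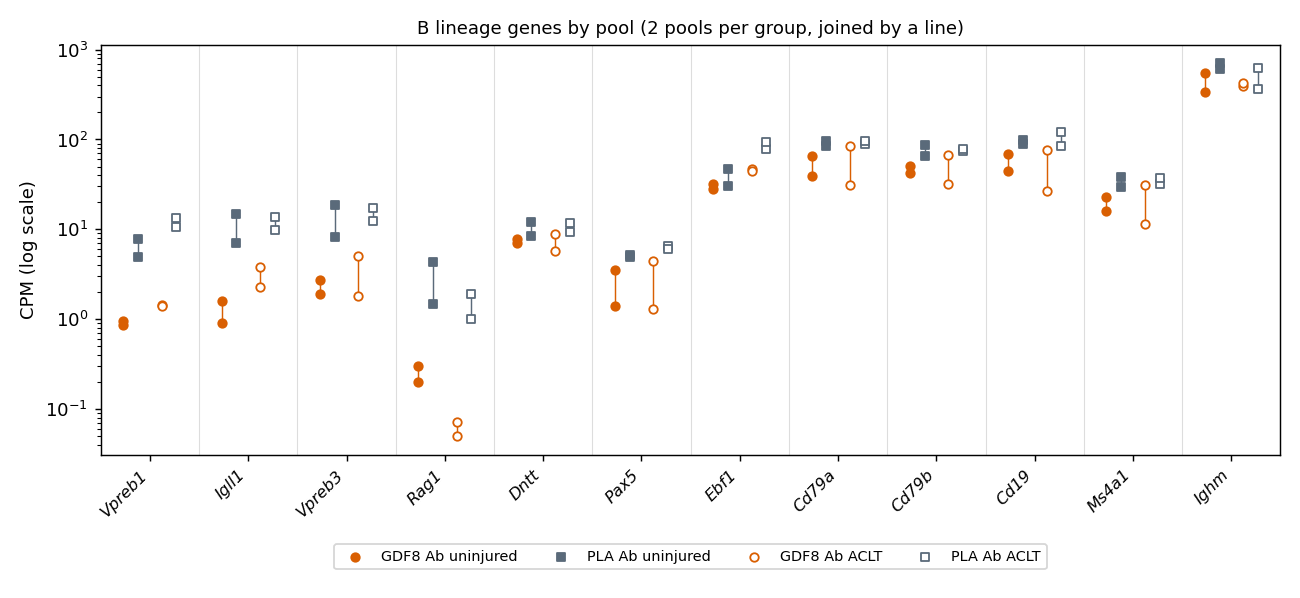
CPM of the 12 B lineage genes in each pool on a log axis, with GDF8 Ab (orange circles) left of PLA Ab (gray squares), filled for uninjured and open for ACLT limbs, and a line joining the 2 pools of a group. The gap between treatments is widest for Vpreb1, Igll1, Vpreb3 and Rag1, and Ebf1 alone overlaps in uninjured limbs.

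Of the contractile genes of smooth muscle 4 were lower in both GDF8 Ab pools, and the other genes of vessel wall cells were mixed. Smooth muscle cells surround arterioles and use their own actin and myosin, and pericytes line capillaries. Myh11, the smooth muscle myosin heavy chain, had 15.3 and 13.6 CPM with GDF8 Ab against 40.3 and 33.1 CPM with PLA Ab, a log2 difference of -1.34 ± 0.20 (SE, adjusted p = 0.484). Acta2, the smooth muscle actin, had 25.4 and 32.5 CPM with GDF8 Ab against 96.3 and 64.7 CPM with PLA Ab (-1.46 ± 0.24, SE, adjusted p = 0.498). Cnn1, which encodes calponin, had 0.973 and 1.67 CPM in GDF8 Ab pools and 7.46 and 6.94 CPM in PLA Ab pools. Tagln, which encodes transgelin, had 10.3 and 16.4 CPM in GDF8 Ab pools and 43.0 and 27.3 CPM in PLA Ab pools. None of the 4 overlapped.

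The other members of the list lay closer together between treatments. Pdgfrb, the receptor that recruits pericytes, had 56.7 and 65.8 CPM with GDF8 Ab and 50.2 and 55.8 CPM with PLA Ab. Rgs5 had 44.1 and 52.4 CPM with GDF8 Ab and 53.2 and 35.4 CPM with PLA Ab. The pericyte proteoglycan gene Cspg4 lay wholly lower by a small margin, at 33.1 and 29.3 CPM with GDF8 Ab and 34.1 and 33.2 CPM with PLA Ab. The receptor gene Notch3 overlapped, as did the contractile kinase gene Mylk at 33.1 and 39.1 CPM with GDF8 Ab and 43.8 and 31.1 CPM with PLA Ab. Of the 9 genes of the list 5 lay wholly lower and 1 wholly higher, against 11.0% and 23.9% of all genes. An unadjusted p under 0.05 was found for 4, all lower. The 12 endothelial genes had 2 wholly higher and 1 wholly lower, against 23.9% and 11.0% of all genes. Their median log2 difference was 0.03. In the ACLT limbs Myh11 and Acta2 were again wholly lower with GDF8 Ab, with log2 differences of -0.97 and -1.13, while Cnn1 and Tagln overlapped.

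The largest difference of any gene named here was that of Actc1, the actin of heart and of developing or regenerating skeletal muscle. Actc1 had 8.58 and 7.07 CPM in GDF8 Ab pools, against 125 and 209 CPM in PLA Ab pools. The means were 7.82 ± 1.07 CPM and 167 ± 59.5 CPM (SD, 2 pools each), a log2 difference of -4.36 ± 0.60 (SE, adjusted p = 0.484). With only the 4 uninjured libraries in the fit Actc1 was the 1 gene called (adjusted p = 0.00112), as it was with the muscle fiber mean as a covariate (adjusted p = 0.00492). Leaving out either GDF8 Ab ACLT pool had the same effect, and over all alternatives its adjusted p ran between 0.00112 and 1.00. In ACLT limbs Actc1 had 1.16 and 5.47 CPM with GDF8 Ab and 0.698 and 0.583 CPM with PLA Ab, all below the uninjured pools.

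**Figure D3:**
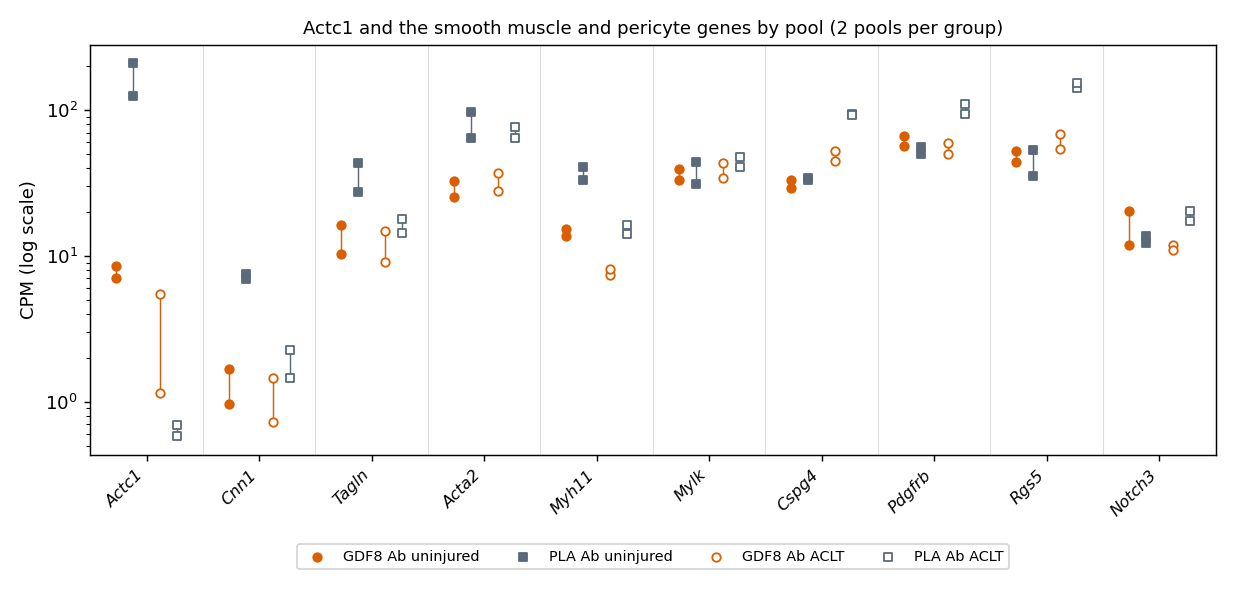
CPM of Actc1 and of the 9 smooth muscle and pericyte genes in each pool on a log axis, GDF8 Ab left of PLA Ab, filled symbols for uninjured and open symbols for ACLT limbs. Actc1, Cnn1, Tagln, Acta2 and Myh11 are separated in uninjured limbs, Rgs5 and Notch3 are not, and Actc1 has the opposite order in ACLT limbs.

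The stretch before the start site of Actc1 is shown because contractile genes of this kind share the CArG box, the site of serum response factor. The sequence is the 250 bases upstream of the start in RefSeq, build GRCm38.p6, chr2:114052876-114053125, minus strand, with the CArG box in capitals.
Actc1: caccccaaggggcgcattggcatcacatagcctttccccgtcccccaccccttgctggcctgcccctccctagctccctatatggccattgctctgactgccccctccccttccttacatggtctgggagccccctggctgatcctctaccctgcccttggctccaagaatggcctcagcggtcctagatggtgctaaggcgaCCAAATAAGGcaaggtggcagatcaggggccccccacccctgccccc
The box spans positions -47 to -38 relative to the start, and 1.47% of 32851 promoter windows of this length hold one on either strand. The pattern searched was CCWWWWWWGG, where W is A or T, and looser forms of the box were not searched. The windows of Acta2 and Cnn1 hold no match to this exact pattern, and Tagln and Myh11 had no entry. A match describes letters only.

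Skeletal muscle RNA was a large and uneven part of these cartilage libraries. The 38 muscle fiber genes had a median log2 difference of -0.73, with 0 at an unadjusted p under 0.05. In GDF8 Ab pools 15 lay wholly lower and 1 wholly higher, against 11.0% and 23.9% of all genes. Acta1, the adult skeletal actin, had 3616 and 5994 CPM with GDF8 Ab and 5923 and 18897 CPM with PLA Ab. Atp2a1, the calcium pump of fast fibers, had 4472 and 7469 CPM with GDF8 Ab and 5678 and 15282 CPM with PLA Ab. Both overlapped, and the share of all muscle fiber reads, to which both genes belong, was 3.75% in GDF8 Ab pool B and 3.88% in PLA Ab pool A. The median was -1.49 without PLA Ab uninjured pool A and -0.31 without PLA Ab uninjured pool B. Over all alternatives it ran between -1.49 and -0.11.

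Values of other muscle genes in that pair of pools, picked after the shares were seen, compare 2 libraries without a test. Actc1 had 7.07 CPM in GDF8 Ab pool B and 125 CPM in PLA Ab pool A. Mybph, a myosin binding protein gene singled out after its values were seen, had 24.0 CPM in GDF8 Ab pool B and 84.3 CPM in PLA Ab pool A, and 14.9 and 123 CPM in the other pool of each group. Mstn had 7.22 CPM in GDF8 Ab pool B and 17.2 CPM in PLA Ab pool A. Among the 9 tested genes of embryonic and regenerating muscle 4 lay wholly lower and 1 wholly higher, against 11.0% and 23.9% of all genes. The higher one was Ncam1, an adhesion molecule of many cell types, at 79.1 and 87.4 CPM with GDF8 Ab and 60.8 and 61.2 CPM with PLA Ab.

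The ubiquitin ligases of muscle atrophy were lower with GDF8 Ab. Trim63, which encodes MuRF1, had 50.1 and 103 CPM with GDF8 Ab against 149 and 445 CPM with PLA Ab, a log2 difference of -1.84 ± 0.60 (SE, adjusted p = 0.891). Fbxo32, which encodes atrogin-1, had 52.9 and 104 CPM with GDF8 Ab against 113 and 440 CPM with PLA Ab (-1.59 ± 0.69, SE, adjusted p = 0.891). Homer2, a scaffold protein of muscle, had 5.23 and 5.86 CPM with GDF8 Ab and 7.50 and 8.68 CPM with PLA Ab. Of 10 genes in this list 5 lay wholly lower, against 11.0% of all genes, and 0 wholly higher. Without PLA Ab uninjured pool B the log2 differences were -1.05 for Trim63 and -0.61 for Fbxo32. In both groups the pool with more muscle fiber reads also had more Trim63 and Fbxo32, and the part of muscle content in these values was not tested.

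**Figure D4:**
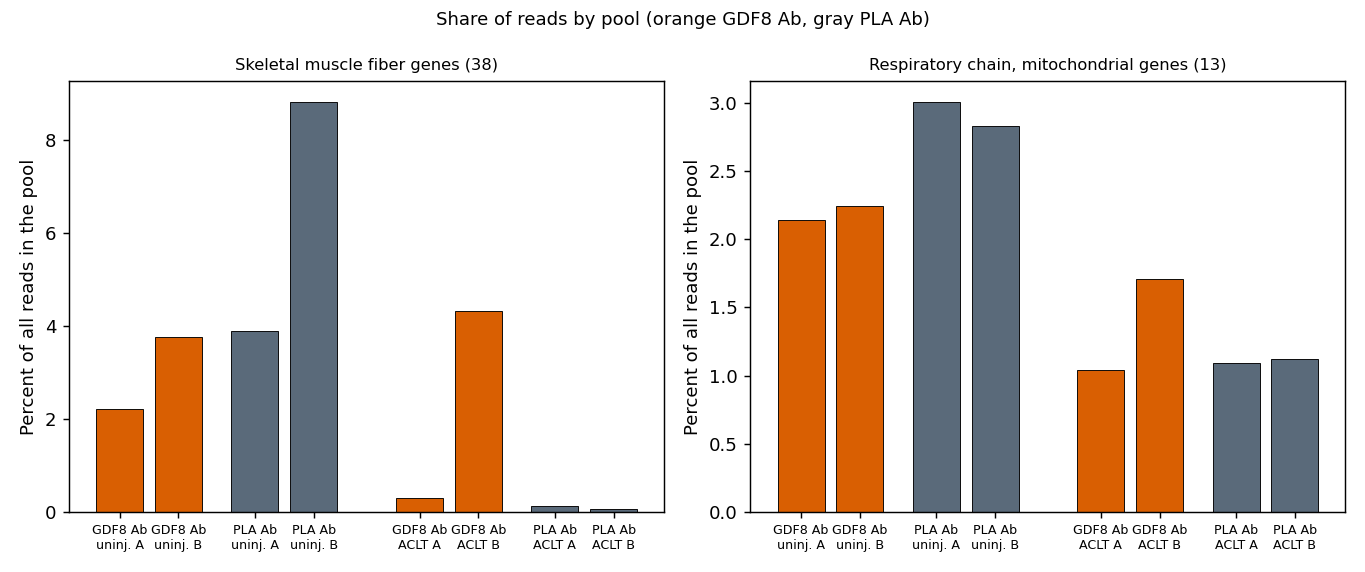
Percent of all reads in each pool that fell on 38 skeletal muscle fiber genes (left) and on 13 mitochondrial respiratory genes (right), GDF8 Ab in orange and PLA Ab in gray, uninjured limbs before ACLT limbs. Muscle reads were 2.21% and 3.75% in the uninjured GDF8 Ab pools and 3.88% and 8.82% in the uninjured PLA Ab pools. The mitochondrial share of both uninjured GDF8 Ab pools was below that of both uninjured PLA Ab pools.

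All 13 protein genes of the mitochondrial genome were lower in both GDF8 Ab pools. These genes encode core subunits of respiratory complexes I, III, IV and V and are transcribed from 1 genome, so they are not independent of each other. Together they had 21416 and 22444 CPM in GDF8 Ab pools and 30112 and 28281 CPM in PLA Ab pools, a ratio of group means of 0.751. Log2 differences ran between -0.66 and -0.21 with a median of -0.42. On the deposited scale 13 of 13 lay wholly lower, against 11.0% of all genes. After trimmed mean rescaling it was also 13 of 13, against 17.5%. The 2 genes with an unadjusted p under 0.05 were mt-Nd3, a subunit of complex I, and mt-Co3, a subunit of complex IV. Mt-Nd3 had 103 and 116 CPM with GDF8 Ab and 184 and 161 CPM with PLA Ab, and mt-Co3 had 2172 and 1886 CPM with GDF8 Ab and 3246 and 2777 CPM with PLA Ab.

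Nuclear genes of the respiratory chain were lower by less. Of 78 genes 45 lay wholly lower, against 11.0% of all genes, and 0 wholly higher. The median log2 difference was -0.26, and 1 gene, Ndufs4 of complex I, had an unadjusted p under 0.05. Ndufs4 had 45.8 and 57.3 CPM with GDF8 Ab and 63.1 and 73.8 CPM with PLA Ab. Muscle is rich in mitochondria, and the part of muscle content in these values was not tested. GDF8 Ab pool B and PLA Ab pool A are a pair picked after their muscle shares were seen. They had 22444 and 30112 CPM of mitochondrial respiratory genes, a ratio of 0.745. Nuclear respiratory genes had 11657 and 11690 CPM in them, a ratio of 0.997. This compares 2 libraries without a test. Of 25 genes of the TCA cycle and pyruvate entry 10 lay wholly lower, against 11.0% of all genes, and 1 wholly higher. Their median log2 difference was -0.25. The abundant members Ogdh and Sdha overlapped, with 445 and 489 CPM of Ogdh in GDF8 Ab pools and 363 and 610 CPM in PLA Ab pools. Glycolysis genes had 5 of 18 wholly lower and 3 wholly higher, against 11.0% and 23.9% of all genes.

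In ACLT limbs the mitochondrial respiratory genes had 0 of 13 genes without overlap in either direction. Of all genes there, 16.3% lay wholly higher and 35.6% wholly lower. The median log2 difference of the 13 genes was 0.25. GDF8 Ab ACLT pool B held 4.32% muscle fiber reads against 0.30%, 0.115% and 0.0665% in the other 3 ACLT pools, and the part of that library in the ACLT values of muscle-rich genes was not tested.

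Among clock genes, Dbp and the Per genes lay wholly higher and the activator genes Arntl, Npas2 and Rora wholly lower with GDF8 Ab. In the mammalian clock BMAL1, encoded by Arntl, pairs with CLOCK or NPAS2 and drives the Per genes and Dbp through E-boxes, while PER proteins feed back on the pair, and DBP acts through D-boxes. The 18 genes of this list were put together after their values were seen. Dbp had 20.2 and 25.0 CPM with GDF8 Ab against 8.44 and 8.93 CPM with PLA Ab, a log2 difference of 1.37 ± 0.21 (SE, adjusted p = 0.484). Per3 had 27.9 and 33.5 CPM with GDF8 Ab against 16.3 and 12.8 CPM with PLA Ab (1.08 ± 0.20, SE, adjusted p = 0.739). Per1 had 14.7 and 16.2 CPM with GDF8 Ab and 6.11 and 11.8 CPM with PLA Ab. Per2 had 19.8 CPM in both GDF8 Ab pools and 14.0 and 12.1 CPM in PLA Ab pools. All 4 were wholly higher with GDF8 Ab.

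The activator genes lay the other way. Arntl had 6.93 and 8.43 CPM with GDF8 Ab against 26.4 and 19.7 CPM with PLA Ab, a log2 difference of -1.57 ± 0.27 (SE, adjusted p = 0.521). Npas2 had 0.547 and 1.56 CPM with GDF8 Ab and 5.07 and 3.10 CPM with PLA Ab. Rora, a nuclear receptor that activates Arntl, had 26.8 and 39.0 CPM with GDF8 Ab and 44.0 and 81.2 CPM with PLA Ab. Bhlhe41, a repressor of the clock, lay on the same lower side, at 7.37 and 9.28 CPM with GDF8 Ab and 9.39 and 11.4 CPM with PLA Ab. Clock itself overlapped, at 19.7 and 18.8 CPM with GDF8 Ab and 26.7 and 15.4 CPM with PLA Ab, as did Cry1, Nr1d1, Tef, Nfil3 and Bhlhe40. Over the list of 18 genes 8 lay wholly higher and 4 wholly lower, against 23.9% and 11.0% of all genes. The hour at which each pool was collected was not analysed here, and its part in the clock values was not tested.

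In ACLT limbs, taken from the same mice, Dbp had 25.1 and 29.0 CPM with GDF8 Ab and 10.4 and 13.6 CPM with PLA Ab, a log2 difference of 1.17. Arntl had 6.76 and 10.3 CPM with GDF8 Ab and 29.7 and 24.9 CPM with PLA Ab, a log2 difference of -1.69. For both genes the pools of the 4 groups fell into 2 levels by treatment. The uninjured minus ACLT differences were 0.20 ± 0.30 for Dbp and 0.12 ± 0.38 for Arntl (SE, adjusted p = 0.819 and 0.917).

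**Figure D5:**
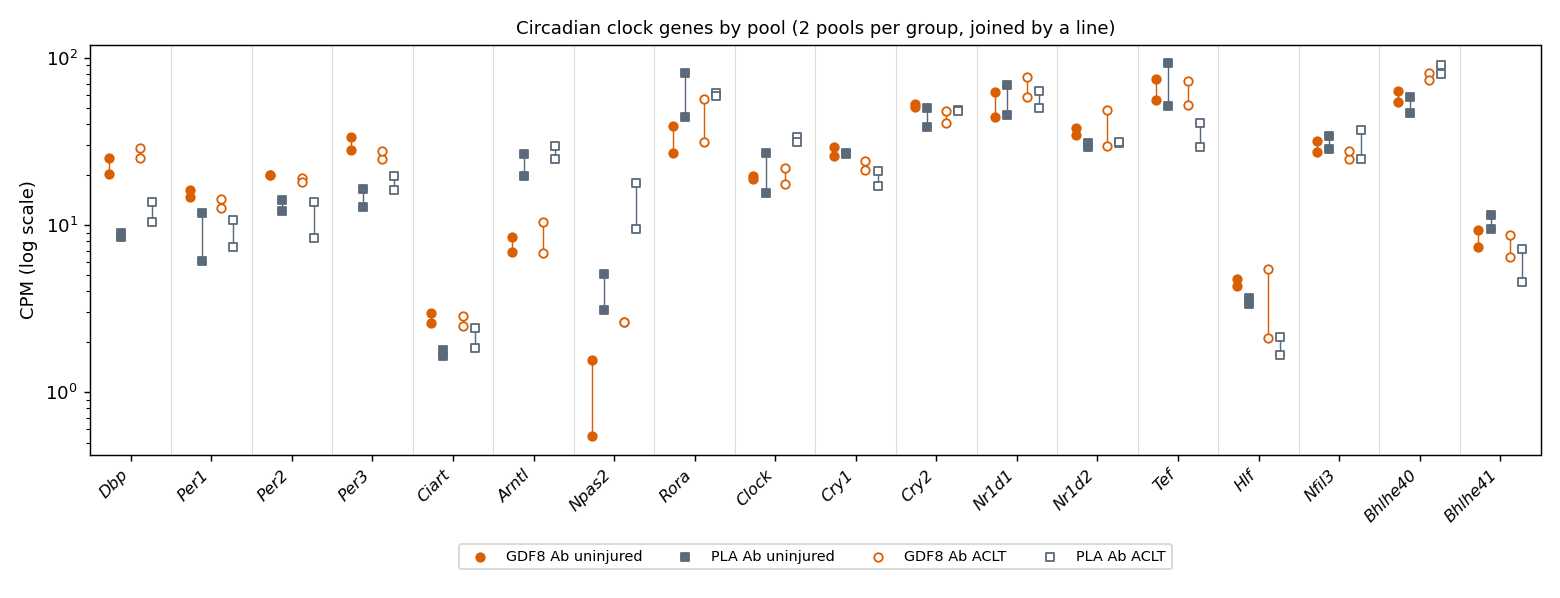
CPM of 18 circadian clock genes in each pool on a log axis, GDF8 Ab left of PLA Ab, filled for uninjured and open for ACLT limbs. Dbp and the Per genes are higher and Arntl and Npas2 lower in all GDF8 Ab pools of both limbs.

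The windows upstream of Per3 and Per1 are shown because they hold D-boxes and an E-box, through which clock factors are known to act. Both are 250 bases before the start site in RefSeq, build GRCm38.p6. Per3 lies at chr4:151044666-151044915 on the minus strand, with D-boxes in capitals (TTATGTAA, searched on both strands). Per1 is 1 of 2 entries, at chr11:69098699-69098948 on the plus strand, with an E-box (CACGTG) and a nuclear receptor element (AGGTCA, here on the other strand) in capitals.
Per3: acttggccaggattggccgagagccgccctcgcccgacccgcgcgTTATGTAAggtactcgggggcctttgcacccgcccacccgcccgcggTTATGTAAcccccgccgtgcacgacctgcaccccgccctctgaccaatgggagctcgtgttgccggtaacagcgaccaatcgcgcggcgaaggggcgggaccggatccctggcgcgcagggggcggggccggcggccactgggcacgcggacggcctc
Per1: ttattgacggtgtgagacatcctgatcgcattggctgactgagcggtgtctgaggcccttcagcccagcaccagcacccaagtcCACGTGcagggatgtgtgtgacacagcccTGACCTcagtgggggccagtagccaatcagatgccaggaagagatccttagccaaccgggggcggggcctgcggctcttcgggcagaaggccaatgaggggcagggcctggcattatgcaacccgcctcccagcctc
The D-boxes of Per3 begin at positions -205 and -158 relative to the start site, and the E-box of Per1 begins at -166. Of all 32851 windows 0.819% hold the D-box, 6.02% the E-box and 14.0% the nuclear receptor element. Of the 18 clock genes 16 had a promoter entry, and among these 1 held the D-box, 5 the E-box and 4 the nuclear receptor element. None of the motifs overlap each other in these windows. The window of Dbp, the clock gene with the largest positive difference, held none of the 3.

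Cartilage genes did not separate the treatments. Of 21 tested chondrocyte and matrix genes 1 lay wholly higher and 2 wholly lower, against 23.9% and 11.0% of all genes. None of the 21 had an unadjusted p under 0.05, and the median log2 difference was -0.21. Prg4 had 1841 and 1656 CPM with GDF8 Ab and 2231 and 1202 CPM with PLA Ab, a log2 difference of 0.09 ± 0.31 (SE, adjusted p = 0.962). Col2a1 had 224 and 656 CPM with GDF8 Ab and 283 and 1654 CPM with PLA Ab. For several hyaline matrix genes the pools of 1 group were farther apart than the treatments. Matn3, which encodes a matrilin and is named here after its values were seen, had 6.81 and 10.3 CPM with GDF8 Ab and 0.0994 and 26.3 CPM with PLA Ab. Col9a1, a type IX collagen chain chosen in the same way, had 1.09 and 12.9 CPM with GDF8 Ab and 0.696 and 43.2 CPM with PLA Ab, low in pool A and high in pool B of both groups.

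The proteases and matrix factors that the study names for injured cartilage were near each other in uninjured limbs. The aggrecanase gene Adamts4 had 2.19 and 4.95 CPM with GDF8 Ab and 5.02 and 2.91 CPM with PLA Ab. Mmp11 had 4.99 and 8.03 CPM with GDF8 Ab and 4.42 and 6.48 CPM with PLA Ab. The membrane protease gene Mmp14 had 63.4 and 96.2 CPM with GDF8 Ab and 67.0 and 85.2 CPM with PLA Ab, a log2 difference of 0.05 ± 0.22 (SE, adjusted p = 0.974) that turns to -0.04 with trimmed mean rescaling. Each of these overlapped.

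Adamts12 had 2.01 and 1.51 CPM with GDF8 Ab and 3.03 and 1.07 CPM with PLA Ab. Postn, which encodes the matricellular protein periostin, had 24.3 and 46.0 CPM with GDF8 Ab and 44.0 and 20.2 CPM with PLA Ab. The study names the collagen crosslinking enzyme gene Lox and the nuclear receptor gene Nr4a3 for quadriceps muscle. Lox had 41.9 and 54.2 CPM with GDF8 Ab and 74.0 and 51.5 CPM with PLA Ab. Nr4a3 lay under 1 CPM in all 4 pools, with 0.547 and 0.252 CPM with GDF8 Ab and 0.596 and 0.178 CPM with PLA Ab. Adamts12, Postn, Lox and Nr4a3 overlapped too. The exception was the gelatinase gene Mmp2, at 29.7 and 67.4 CPM with GDF8 Ab and 76.9 and 73.7 CPM with PLA Ab, a log2 difference of -0.75 ± 0.32 (SE, adjusted p = 0.891). It was -0.16 without GDF8 Ab uninjured pool A, the lowest of the 4 pools.

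Of 20 collagen-degrading proteases 2 lay wholly higher and 2 wholly lower, with a median log2 difference of 0.07. Of 13 ADAMTS proteases 0 lay wholly higher and 1 wholly lower, with a median of -0.05. Among all genes 23.9% lay wholly higher and 11.0% wholly lower. The second wholly lower protease was the macrophage elastase gene Mmp12, at 1.15 and 1.02 CPM with GDF8 Ab and 3.94 and 14.0 CPM with PLA Ab (log2 difference -2.73 ± 0.53, SE, adjusted p = 0.739). The abundant procollagen peptidase gene Adamts2 had 62.3 and 77.1 CPM with GDF8 Ab and 53.3 and 70.9 CPM with PLA Ab, and Adamts10 had 68.4 and 85.5 CPM with GDF8 Ab and 72.1 and 57.1 CPM with PLA Ab.

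Collagens outside cartilage and tendon genes had negative medians, mostly with overlap. The 18 collagen genes had a median log2 difference of -0.48, with 2 wholly lower, against 11.0% of all genes. After trimmed mean rescaling 6 lay wholly lower, against 17.5% of all genes. The median was -0.12 without GDF8 Ab uninjured pool A and -0.16 without PLA Ab uninjured pool A. The 2 wholly lower on the deposited scale were Col15a1, a basement membrane collagen, and Col5a2, which joins type I fibrils. Col15a1 had 1.16 and 0.959 CPM with GDF8 Ab and 2.73 and 2.85 CPM with PLA Ab. Col5a2 had 46.6 and 89.0 CPM with GDF8 Ab and 117 and 109 CPM with PLA Ab. Fmod, a proteoglycan gene of tendon and ligament, had 32.8 and 60.7 CPM with GDF8 Ab and 131 and 88.4 CPM with PLA Ab, a log2 difference of -1.27 ± 0.31 (SE, adjusted p = 0.891). The 6 tendon and ligament genes had a median log2 difference of -1.04, and 2 of them lay wholly lower, against 11.0% of all genes. Their median was -1.56 without PLA Ab uninjured pool B, -0.56 without PLA Ab uninjured pool A and -0.58 without GDF8 Ab uninjured pool A.

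Among 16 fibroblast genes 3 were past the unadjusted threshold, all lower. Of the 16, 2 lay wholly lower, against 11.0% of all genes. They were Dpp4, a peptidase gene of fibroblast progenitors, at 13.2 and 9.64 CPM with GDF8 Ab and 26.3 and 17.5 CPM with PLA Ab, and Pdpn at 1.09 and 1.01 CPM with GDF8 Ab and 2.83 and 1.42 CPM with PLA Ab. Cthrc1 overlapped, at 2.62 and 7.52 CPM with GDF8 Ab and 7.36 and 15.6 CPM with PLA Ab. Of the 20 immediate early genes Jun and Atf3 were the 2 with an unadjusted p under 0.05. Jun, a subunit of AP-1, had 20.7 and 30.2 CPM with GDF8 Ab and 43.6 and 58.3 CPM with PLA Ab. Atf3, a stress-induced transcription factor gene, had 5.90 and 5.20 CPM with GDF8 Ab and 9.44 and 8.29 CPM with PLA Ab. The list as a whole had 3 genes wholly higher and 3 wholly lower, against 23.9% and 11.0% of all genes.

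Osteoclast genes lay higher and osteocalcin genes lower with GDF8 Ab. Osteoclasts resorb bone, and osteocalcin is made by mature osteoblasts. Atp6v0d2, a proton pump subunit gene of osteoclasts, had 44.0 and 56.9 CPM with GDF8 Ab and 31.0 and 35.4 CPM with PLA Ab, a log2 difference of 0.59 ± 0.17 (SE, adjusted p = 0.891). The receptor gene Oscar had 8.58 and 10.2 CPM with GDF8 Ab and 3.73 and 5.55 CPM with PLA Ab, and the fusion gene Ocstamp had 6.63 and 8.88 CPM with GDF8 Ab and 3.18 and 5.30 CPM with PLA Ab. Of 10 osteoclast genes 6 lay wholly higher on the deposited scale, against 23.9% of all genes, and 3 after trimmed mean rescaling, against 17.1%. The median log2 difference was 0.53, and it was 0.26 without GDF8 Ab uninjured pool B. The osteocalcin gene Bglap had 45.6 and 119 CPM with GDF8 Ab and 141 and 259 CPM with PLA Ab. Its near-identical neighbor Bglap2 had 34.4 and 89.1 CPM with GDF8 Ab and 107 and 205 CPM with PLA Ab, and the split of reads between both is uncertain. Over 16 hypertrophic and bone genes 5 lay wholly higher and 3 wholly lower, against 23.9% and 11.0% of all genes.

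Cell cycle genes were slightly higher with GDF8 Ab. Of 22 genes 18 lay wholly higher, against 23.9% of all genes, and 12 after trimmed mean rescaling, against 17.1%, with a median log2 difference of 0.29 that was 0.18 without GDF8 Ab uninjured pool A. Aurkb, a mitotic kinase gene, had 172 and 146 CPM with GDF8 Ab and 121 and 125 CPM with PLA Ab. Birc5, which encodes survivin, had 222 and 177 CPM with GDF8 Ab and 152 and 143 CPM with PLA Ab. Erythroid precursors divide rapidly, and the hemoglobin gene Hbb-bs had 33096 and 25608 CPM with GDF8 Ab and 22629 and 23503 CPM with PLA Ab, wholly higher as well. Hba-a2 had 31034 and 23725 CPM with GDF8 Ab and 20183 and 25614 CPM with PLA Ab, which overlapped. The part of erythroid cells in the cell cycle values was not tested.

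The genes with the largest positive differences by the naming rule were low in absolute terms, and included Dbp, described above, and genes of alpha-1-antitrypsin, a cluster of protease inhibitor genes that liver expresses most. Serpina1d had 39.5 and 22.6 CPM with GDF8 Ab and 10.1 and 10.9 CPM with PLA Ab, a log2 difference of 1.50 ± 0.33 (SE, adjusted p = 0.891). Serpina1a had 13.8 and 8.66 CPM with GDF8 Ab and 1.86 and 3.42 CPM with PLA Ab. The 5 cluster genes are near-identical copies whose reads may be split among them, and 3 lay wholly higher, against 23.9% of all genes. The neuropeptide receptor gene Adcyap1r1 had 6.14 and 4.69 CPM with GDF8 Ab and 1.99 and 0.641 CPM with PLA Ab. Pi15 had 4.44 and 5.65 CPM with GDF8 Ab and 2.88 and 0.747 CPM with PLA Ab, and the chitinase-like gene Chil4 had 4.01 and 7.32 CPM with GDF8 Ab and 2.54 and 1.39 CPM with PLA Ab. The pseudogene Rps16-ps2, whose reads may come from its parent gene, had 5.17 and 5.50 CPM with GDF8 Ab and 1.87 and 2.06 CPM with PLA Ab. Gm49839 had 6.69 and 6.16 CPM with GDF8 Ab and 2.98 and 2.38 CPM with PLA Ab.

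Of the genes with the largest negative differences, 2 had a single high library, PLA Ab pool B. The gene 1700001O22Rik had 0.304 and 0.454 CPM with GDF8 Ab and 0.895 and 12.9 CPM with PLA Ab. Rasd2, which encodes a small GTPase, had 4.56 and 4.49 CPM with GDF8 Ab and 11.5 and 53.2 CPM with PLA Ab. In both genes PLA Ab pool A was much nearer to the GDF8 Ab pools than to PLA Ab pool B.

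The treatment difference in uninjured limbs was then set beside that in ACLT limbs. The test of the difference between both limbs, the drug × injury interaction, called 0 of 17401 genes by limma (0.0%), and 1799 (10.3%) passed the unadjusted threshold. The ACLT comparison alone called 0 genes, with 3010 at an unadjusted p under 0.05 (17.3%), 975 higher (5.6%) and 2035 lower (11.7%). Of the 275 genes with an unadjusted p under 0.05 and a lower level in uninjured limbs, 159 (57.8%) also lay wholly lower in ACLT limbs, where 35.6% of all genes did. Of the 516 genes with a higher level, 134 (26.0%) lay wholly higher in ACLT limbs, where 16.3% of all genes did, and as many, 134 (26.0%), lay wholly lower there. Both limbs of a treatment came from the same mice, and the model did not pair them, so the interaction p-values ignore that pairing. The median absolute log2 difference of all genes was 0.21 in uninjured limbs and 0.30 in ACLT limbs.

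Some groups had unlike values in both limbs. The osteoclast genes had a median log2 difference of 0.53 in uninjured limbs and -0.71 in ACLT limbs. In ACLT limbs 6 of 10 lay wholly lower, against 35.6% of all genes there. The SMAD2/3 targets had medians of -0.03 and -0.65 and the ADAMTS proteases of -0.05 and -1.04 in uninjured and ACLT limbs. Trim63 was lower with GDF8 Ab in uninjured limbs but had 34.6 and 100.1 CPM in GDF8 Ab ACLT pools and 1.89 and 1.71 CPM in PLA Ab ACLT pools. The differences between medians were not tested, and no single gene passed the adjusted interaction threshold, so none is called particular to uninjured limbs.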

How the data were processed

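RNA of pooled mouse articular cartilage gave 8 libraries, with 4 groups of 2 pools, and groups follow the sample labels with replicates named by pool letter. The deposited table holds CPM made by the authors, in which each column sums to 1e+06. The submitters' processing notes list the aligner STAR (2.7.3a), Partek, DESeq2 and both mm10 and mm39, without saying which step used which. Of 20494 genes matched to GENCODE M21, 2.23% have the GRCm38 start, so gene coordinates are not printed and promoters carry their own build.

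The value of 1 read was taken from the step between low CPM values. Whole reads were not recovered, so no count test was run. A gene was kept where its mean reached 10 reads at the median depth (0.498 CPM), which held for 17401 of 20539, and log2(CPM + 0.0498) was fitted in limma 3.58.1 under R 4.3.3 with moderated variances that follow mean expression (residual degrees of freedom 4, prior 4.74), with adjustment over all tested genes and a two-sided threshold of 0.05. Fold changes are on that scale, which understates those of low genes. The fit was tried on simulated data, with large changes planted only in genes of below-median spread and with noise independent between genes. That trial does not bear on small differences or on genes that vary together. Tables and figures were made in Python 3.11.15.

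The genes named are the 8 largest positive and 8 largest negative differences at an unadjusted p under 0.05 with no overlap and a mean of 5 CPM or more where it is higher, the genes the paper names, Mstn, and up to 4 members of each list described with the smallest p (the 2 most abundant where none was under 0.05). B cell, smooth muscle and clock lists are shown whole, and other exceptions are marked. Members and lists were chosen with earlier results of these data known. Alternatives were other pseudocounts and filters, scalings, fits, blocks and each pool left out.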

Additional observations from a re-analysis of the deposited data

Results flagged for a closer look

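For 10 of the genes named in the report the treatment groups did not overlap in either limb and lay in opposite directions in uninjured and ACLT limbs. The difference between limbs was tested as the drug × injury interaction and passed the adjusted threshold for 0 of the 10 genes (limma, adjusted p between 0.432 and 0.466). It is given as the uninjured minus the ACLT log2 difference, each GDF8 Ab minus PLA Ab.

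Of muscle genes, Trim63 had -6.83, Actc1 had -6.27 and Fbxo32 had -3.02, all lower with GDF8 Ab in uninjured and higher in ACLT limbs. GDF8 Ab ACLT pool B held more muscle fiber reads than the other 3 ACLT pools, and the part of this in the values was not tested. Of other genes lower in uninjured limbs, Rasd2 had -4.43 and 1700001O22Rik had -4.18. Higher in uninjured and lower in ACLT limbs were the protease inhibitor genes Serpina1a at 3.38 and Serpina1d at 1.97, the osteoclast genes Ocstamp at 1.77 and Atp6v0d2 at 1.31, and the pericyte gene Pdgfrb at 1.10.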

How the results depend on the processing

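No gene was called in uninjured limbs under most alternatives, including voom, other scalings and other pseudocounts and filters. The exceptions each called 1 gene, Actc1, with only the 4 uninjured libraries and with the muscle fiber mean as a covariate, and 0 to 1 with a pool left out. The ACLT comparison called 0 to 462 genes with a pool left out and the interaction 0 to 305, the highest counts without GDF8 Ab ACLT pool A in both. The interaction with the covariate called 1 gene, Trim63. Genes at an unadjusted p under 0.05 in uninjured limbs were 2282 without PLA Ab uninjured pool A, 1975 of them higher, and 414 to 2282 over the pools left out. A pseudocount and filter of 1 CPM, chosen after seeing the data, called 0.

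Pool letters and title numbers do not mark the same mice across treatments, so they do not pair the treatments. Whether uninjured and ACLT pools of the same letter within a treatment hold the same mice was not checked. Between the treatments, deviations of same-lettered pools correlated at r = 0.131 in uninjured limbs and 0.003 in ACLT limbs. Those of same-numbered pools gave -0.131 in uninjured limbs, the same value with the order of the GDF8 Ab pools reversed. These pools are from different mice, so the correlations cannot show pairing. A replicate block by letter left 0 calls in uninjured limbs (920 at the unadjusted threshold) and 1 call, Trim63, in ACLT limbs and 1 in the interaction. A block by title number left 0 calls in uninjured limbs.

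Some log2 differences turned sign, most of them small, but also those of Col2a1 and Atp2a1. List medians of cartilage genes (-0.46 to 0.15) and fibroblast genes (-0.87 to 0.27) crossed 0 as well. With trimmed mean rescaling Mmp14 was -0.043 and Cry1 -0.047. With quantile normalization Mmp14 was -0.0033, Nr4a3 -0.028 and Hba-a2 -0.048. With voom Adamts12 was 0.039. With the covariate Nr4a3 was -0.28, Bmp1 0.044, Prg4 -0.012, Ogdh 0.14, Atp2a1 0.13, Nr1d1 0.031 and Tef 0.039. With a pool left out the ranges crossed 0 for Adamts12 (-0.78 to 0.68), Adamts2 (-0.033 to 0.38), Adamts4 (-0.79 to 0.37), Atp2a1 (-1.40 to 0.025), Bmp1 (-0.50 to 0.40), Clock (-0.47 to 0.32), Col2a1 (-2.11 to 0.44), Cry1 (-0.040 to 0.13), Ltbp3 (-0.32 to 0.024), Mmp11 (-0.10 to 0.58), Mmp14 (-0.25 to 0.35), Mylk (-0.28 to 0.21), Nfil3 (-0.20 to 0.051), Notch3 (-0.13 to 0.65), Nr1d1 (-0.38 to 0.21), Nr4a3 (-0.61 to 0.90), Ogdh (-0.39 to 0.36), Postn (-0.40 to 0.72), Prg4 (-0.35 to 0.54), Rgs5 (-0.15 to 0.44), Sdha (-0.31 to 0.036) and Tef (-0.52 to 0.33). The cause was not tested. With 2 pools a group and genes down to 10 reads on average, differences of low genes are known least.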
